A study of Homo sapiens with 12 samples.

Results

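The interferon-stimulated genes and RNA sensors were described in HOS, a human osteosarcoma cell line, across 12 RNA-seq libraries. The members were taken as the rows of the count table whose Ensembl identifiers carry 45 listed gene symbols, and all 45 were found among 25141 genes. By role they comprised 8 RNA sensors, 2 sensor cofactors, 4 transcription factors, 4 genes of the ISG15 system, 2 ADP-ribosyltransferases, 19 antiviral effectors, 5 genes of the guanylate-binding protein and antigen processing group, and 1 signalling regulator. The libraries fell into 4 groups of 3. The libraries labelled upCIN85 came from a geneticin-resistant pool of HOS cells carrying the pRc/CMV2-Rukl plasmid for full-length CIN85, an adaptor protein encoded by SH3KBP1, and the Mock libraries from a pool with the empty vector. In the knockdown experiment, siCIN85 cells received 3 pooled siRNAs directed at CIN85, while a non-targeting siRNA was given to siNeg cells. Both pools were mixed populations under selection, and every library came from the same parental line. The labels do not say that replicates were separate cultures, so p-values measure only the spread between these samples. In bulk RNA, fewer cells expressing a gene and less of its RNA per cell cannot be told apart.

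Interferons are secreted proteins that cells release when their sensors meet viral RNA or DNA. DDX58 (RIG-I) and IFIH1 (MDA5) recognise double-stranded RNA in the cytoplasm, and TLR3 recognises it in endosomes, after which kinases activate the factors that switch on interferon genes. Interferon receptors then activate STAT2 and IRF9, which act at the interferon-stimulated response element (ISRE) of many target genes, including the sensors themselves. Another element, GAS, is found at genes that interferon gamma induces, such as the guanylate-binding proteins.

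RefSeq promoter windows on GRCh38.p14, running from 250 bases before to 50 bases after each start site, were held for 36 of the 45 members. The ISRE core was searched as GAAA, any 2 bases and GAAA again, on both strands, and GAS as TTCNNNGAA, which reads the same on both strands. An ISRE core lay in the windows of 21 members (58.3%), against 3.65% of 27305 promoters, and a GAS match in 9 members (25%), against 7.88%. Both motifs were found in 5 members. Of the guanylate-binding proteins, GBP1 had an ISRE core and no GAS match in its window, and no window was held for GBP2. The sequences of 3 members with a large difference between the siRNA libraries are given for the bases from 200 to 81 before the start site, a stretch without annotated exons in GENCODE 29, with the ISRE cores in capitals.
IFI27, chr14:94110536-94110655, plus strand: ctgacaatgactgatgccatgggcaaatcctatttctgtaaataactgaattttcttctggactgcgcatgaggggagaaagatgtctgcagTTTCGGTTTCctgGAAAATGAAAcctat
IFI6, chr1:27672273-27672392, minus strand: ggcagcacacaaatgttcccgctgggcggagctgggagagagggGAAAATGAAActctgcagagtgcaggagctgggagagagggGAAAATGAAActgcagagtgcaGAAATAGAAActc
ISG15, chr1:1013297-1013416, plus strand: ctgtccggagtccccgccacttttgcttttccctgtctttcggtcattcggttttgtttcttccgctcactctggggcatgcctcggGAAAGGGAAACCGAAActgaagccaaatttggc
The IFI27 and ISG15 stretches lay in introns of longer GENCODE transcripts of the same genes, and the IFI6 stretch lay upstream of IFI6 and inside the antisense gene AL445490.1. IFI27 held 2 cores in opposite orientation, IFI6 held 3 in the same orientation, and the 2 cores of ISG15 overlapped.

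Total counts ranged from 3540641 to 6049458 per library. SH3KBP1 gave 342, 357 and 317 counts in siNeg and 16, 31 and 37 in siCIN85, and its level fell by 3.51 on the log2 scale (SE 0.21, adjusted p = 5.1e-08 in edgeR). In the libraries labelled upCIN85 its counts were 406, 551 and 487, against 407, 488 and 416 in Mock, so the transgene was not visible in the counts on this gene (log2 fold change 0.07, SE 0.16). The paper reports CIN85 protein overexpression in upCIN85 cells, measured by western blot. Whether RNA from the plasmid could be counted on SH3KBP1 was not checked. Of the mesenchymal and osteosarcoma markers, VIM, SPARC, CD44 and COL1A1 were read at over 890 counts in every library. COL1A2 was read at 65 to 1250 counts, RUNX2 at 25 to 228 and THY1 at 49 to 130. The leukocyte markers PTPRC, CD3E and LYZ were at 0 or 1, while the monocyte marker CD14 was at 4 to 9 in every library. The epithelial genes EPCAM and CDH1 were also read, at 85 to 360 and 66 to 209 counts. Replicate 1 of siNeg and replicate 1 of siCIN85 stood apart from all other libraries in the members. Together the 45 members took 0.272% of the counts of siNeg replicate 1 and 0.138% of those of siCIN85 replicate 1, against 0.0498% to 0.0688% in the other 10 libraries. Mitochondrial transcripts took 4.36% and 4.96% in these 2 libraries and 5.45% to 7.53% in the other 4 siRNA libraries, and their total counts were 4011368 and 3991517. The part of these differences in the results was not tested.

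**Figure D1:**
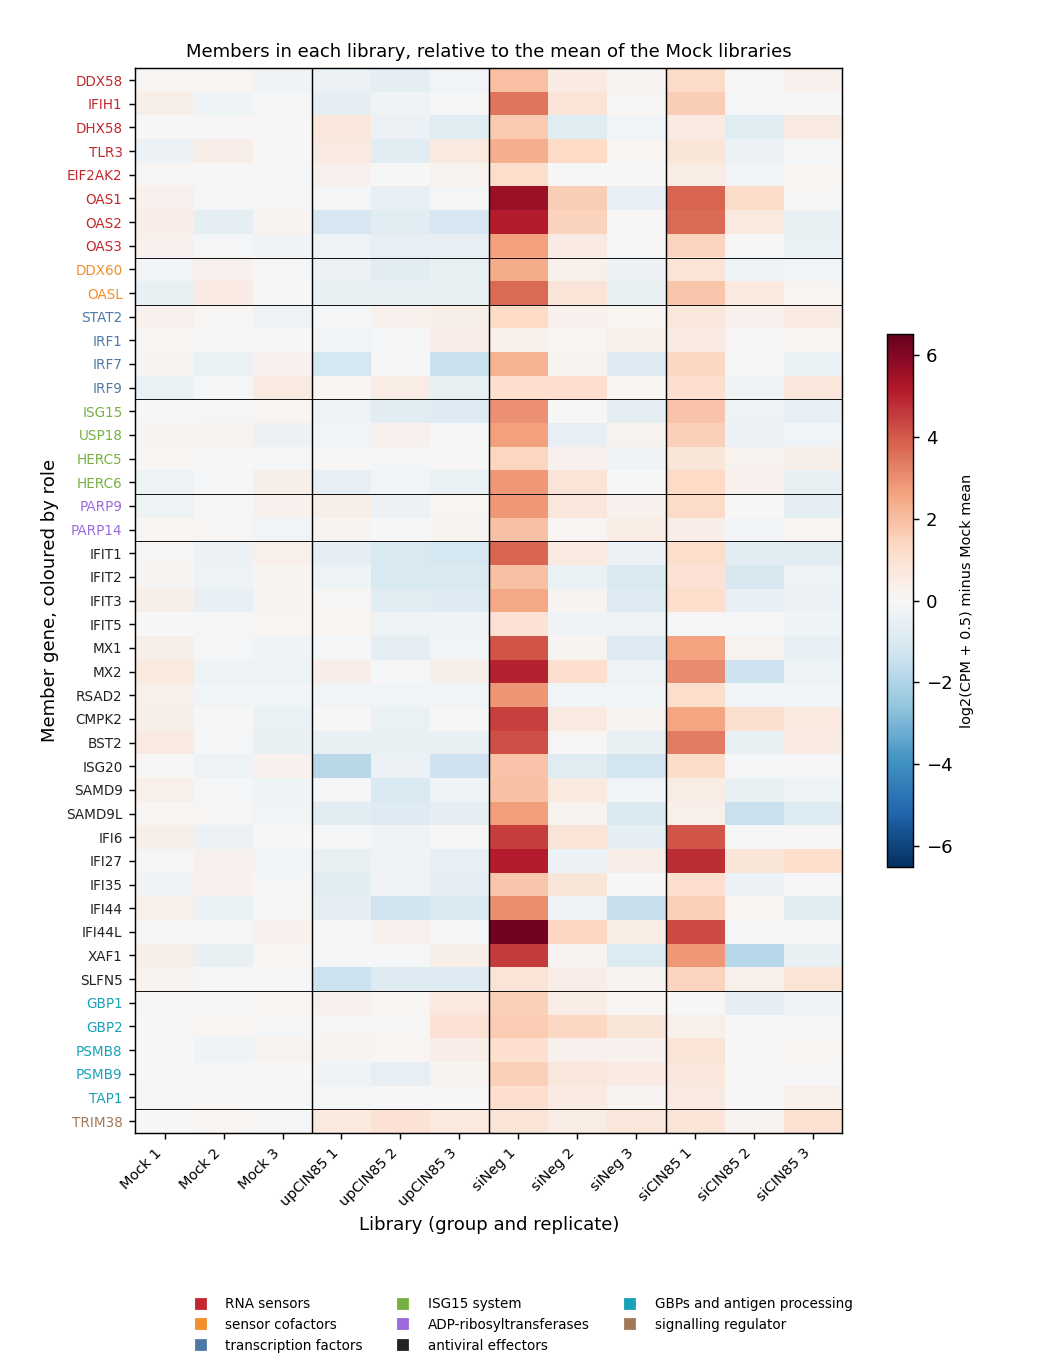
Each row is a member, coloured by role, and each column a library; the colour is log2 of CPM (counts scaled to the same library size) plus 0.5 minus the mean of the same value over the 3 Mock libraries. The columns of siNeg 1 and siCIN85 1 are red for nearly every member, while the columns of the other siRNA libraries are pale.

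Replicate 1 was compared with replicates 2 and 3 within each siRNA group by the ratio of its CPM, scaled with TMM factors, to the mean CPM of the other 2. The comparison was not tested, because the labels give replicate 1 no condition of its own. Of the 39 members with a mean of at least 10 counts over the 6 siRNA libraries, 38 were highest in replicate 1 of both groups, where 15.4% of 11717 genes were. TRIM38 was the exception, with its highest level in siCIN85 replicate 3. This choice favours the result, since 12 of the 39 had a mean below 10 counts in replicates 2 and 3 and were included only through replicate 1: BST2, CMPK2, IFI27, IFI35, IFI44, IFI44L, MX2, OAS1, OAS2, SAMD9L, USP18 and XAF1. When members were chosen instead by a mean of at least 10 counts in the 6 Mock and upCIN85 libraries, which does not use the siRNA libraries, 29 of 30 were highest in both replicate 1 libraries, against 15.2% of genes. None of the 39 was highest in replicate 2 of both groups or in replicate 3 of both, where 14.4% and 17.5% of genes were. In Mock and upCIN85, 8 of 30 members with enough counts were highest in replicate 1 of both groups, against 14.8% of genes. Ratios of at least 4 in both siRNA groups were seen for 17 of the 11717 genes, 0.145% of them, and 13 of the 17 were members. The other 4 were CXCL11, a chemokine induced by interferon, the complement genes CFI and C1R, and the unnamed transcript AL645608.7, chosen here after their values were seen. With the choice by Mock and upCIN85 counts, 5 genes (0.0409%) reached a ratio of 4 in both, and all 5 were members. No gene reached that ratio in replicate 2 or 3 of both siRNA groups or in any replicate of both Mock and upCIN85.

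All 6 RNA sensors with enough counts were highest in both replicate 1 libraries, with a median ratio of 6.81 in siNeg and 3.34 in siCIN85. OAS1 and OAS2 entered only through replicate 1, which raises these medians. Over the 4 sensors chosen by Mock and upCIN85 counts they were 4.07 and 2.61. DDX58 (ENSG00000107201, chr9:32455705-32526324) gave 175, 66 and 48 counts in siNeg replicates 1, 2 and 3 and 108, 39 and 50 in siCIN85. Replicate 1 was 3.06 times the mean of the others in siNeg, with a 95% exact binomial interval of 2.39 to 3.89, and 2.14 times in siCIN85 (1.60 to 2.86). These intervals cover counting error only. The Mock and upCIN85 libraries, with 42 to 69 counts and larger totals, held DDX58 at 6.86 to 12.04 CPM, below the 43.7 and 26.2 CPM of the 2 replicate 1 libraries.

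IFIH1 (ENSG00000115267, chr2:162267079-162318703), the sensor of long double-stranded RNA, gave 141, 22 and 11 counts in siNeg and 39, 9 and 10 in siCIN85. Its ratios were 8.55 and 3.61, higher than those of DDX58 in both groups. DHX58 (LGP2), a helicase that lacks the signalling domains of the other 2, gave 9, 0 and 1 counts in siNeg and 3, 0 and 3 in siCIN85. Endosomal TLR3 gave 27, 12 and 4 counts in siNeg and 8, 2 and 3 in siCIN85. At these counts the siCIN85 ratio of TLR3 had an interval of 0.811 to 10.9, so no difference between replicates was detectable there.

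EIF2AK2 (PKR), a kinase that stops translation when it binds double-stranded RNA, differed least among the sensors with enough counts. It gave 712, 330 and 301 counts in siNeg and 451, 243 and 332 in siCIN85, ratios of 2.24 and 1.39. The oligoadenylate synthetases OAS1, OAS2 and OAS3, whose product activates RNase L, stood at the other end. OAS1 gave 137, 7 and 0 counts in siNeg and 39, 4 and 1 in siCIN85, and OAS2 gave 141, 10 and 2 and then 53, 4 and 1. Both were at 0 to 5 counts in the 6 Mock and upCIN85 libraries. OAS3 was read in every library, at 930, 218 and 147 counts in siNeg and 406, 130 and 100 in siCIN85, with ratios of 5.08 and 3.08. The 3 genes lie side by side at chr12:112906777-113011723, and the ratio was 40.03 for OAS1, 23.8 for OAS2 and 5.08 for OAS3 in siNeg.

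**Figure D2:**
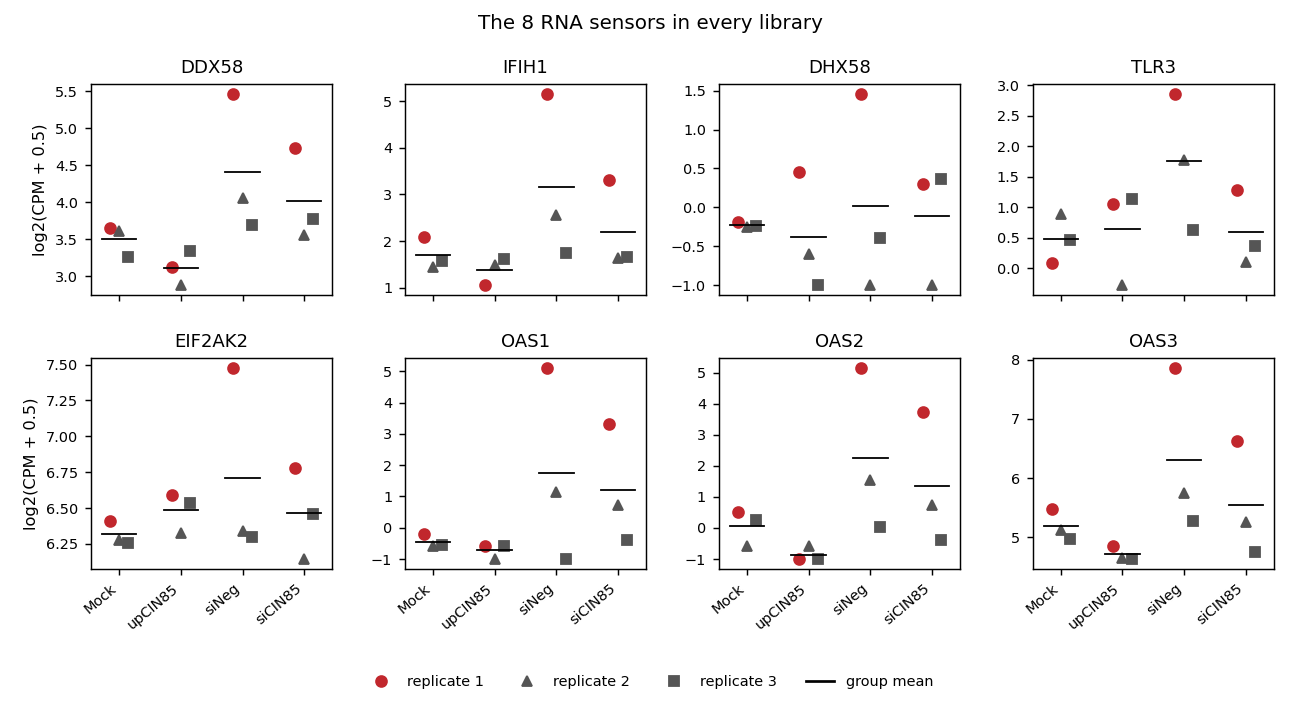
Each panel is 1 of the 8 RNA sensors, with log2 of CPM plus 0.5 on the vertical axis of its own scale, the 4 groups on the horizontal axis, a marker for each replicate (replicate 1 in red) and a line at the group mean. Replicate 1 of siNeg is the highest of the 12 libraries in all 8 panels, and replicate 1 of siCIN85 is next in 6, all but DHX58 and TLR3.

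The sensor cofactors DDX60, a helicase reported to aid RIG-I, and OASL, an oligoadenylate synthetase relative without its activity, followed the sensors. DDX60 gave 94, 21 and 11 counts in siNeg and 31, 11 and 13 in siCIN85, ratios of 5.88 and 2.27. OASL was at 34, 3 and 0 counts and then 8, 2 and 1.

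The 4 transcription factors differed among themselves. IRF7, which drives interferon genes and is itself induced by interferon, gave 88, 20 and 8 counts in siNeg and 46, 13 and 11 in siCIN85, ratios of 6.31 and 3.35. STAT2 gave 211, 108 and 90 and then 151, 92 and 117, ratios of 2.12 and 1.27. IRF1, which interferon gamma and NF-kB signalling induce, was at 96, 86 and 92 counts in siNeg and 113, 69 and 80 in siCIN85. Its siNeg ratio of 1.07 had an interval of 0.825 to 1.38, which includes 1, while its siCIN85 ratio of 1.34 had one of 1.03 to 1.71. IRF9 was too low to compare, at 6, 6 and 2 counts and 6, 1 and 4.

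In the ISG15 system, ISG15 is a ubiquitin-like protein, HERC5 its ligase and USP18 the protease that removes it and damps receptor signalling. ISG15 gave 555, 71 and 44 counts in siNeg and 263, 47 and 45 in siCIN85, ratios of 9.63 and 5.01. USP18 gave 43, 3 and 6 and then 19, 3 and 4, ratios of 9.36 and 4.79, close to those of ISG15. HERC6, a relative of HERC5, gave 103, 25 and 12 counts and then 36, 14 and 8, ratios of 5.57 and 2.84. HERC5, already at 223 to 242 counts in each Mock and upCIN85 library, had the smallest ratios of the system, 2.53 and 1.40. PARP9 and PARP14, ADP-ribosyltransferases of interferon signalling, had ratios of 4.99 and 3.00 in siNeg and 3.11 and 1.37 in siCIN85. PARP9 gave 263, 63 and 42 counts in siNeg and 91, 30 and 21 in siCIN85, and PARP14 gave 487, 144 and 176 and then 182, 99 and 135.

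The antiviral effectors had a median ratio of 18.3 in siNeg and 3.96 in siCIN85 over the 17 with enough counts. The siCIN85 median was 4.03 with IFI44L set against a floor of 3 counts over replicates 2 and 3. Several of the 17 entered only through replicate 1, which raises these medians. Over the 11 effectors chosen by their Mock and upCIN85 counts the medians were 9.31 and 3.86, and over the 4 sensors chosen in the same way 4.07 and 2.61. IFI6, a mitochondrial protein that protects cells from death, gave 1194, 97 and 32 counts in siNeg and 946, 44 and 50 in siCIN85, ratios of 18.6 (15.3 to 22.2) and 17.7 (14.3 to 22.1). The GTPase MX1 gave 718, 47 and 21 counts and then 266, 41 and 26, ratios of 21.2 and 6.90. Its paralog MX2 gave 160, 9 and 2 and then 42, 0 and 2, with a siCIN85 ratio of 38.6 on an interval of 9.60 to 315. In each of these genes both replicate 1 libraries lay above all 10 others.

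IFI27 gave 128, 1 and 3 counts in siNeg and 108, 4 and 6 in siCIN85, ratios of 62.4 and 19.1. XAF1, an inhibitor of the caspase inhibitor XIAP, gave 266, 11 and 4 and then 81, 1 and 6, ratios of 35.6 and 21.0. BST2 (tetherin), which holds budding viruses on the cell surface, gave 50, 1 and 0 and then 28, 0 and 2. With so few counts in replicates 2 and 3, the BST2 intervals ran from 17 to 3992 in siNeg and from 6.21 to 213 in siCIN85. These 3 genes were at 0 to 4 counts (IFI27), 9 to 19 (XAF1) and 0 to 3 (BST2) in the Mock and upCIN85 libraries.

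IFI44L gave 171, 4 and 1 counts in siNeg and 41, 0 and 0 in siCIN85. There replicate 1 was 24.0-fold the floor of 3 counts over replicates 2 and 3 together, and the exact binomial interval started at 18.7. CMPK2, a nucleotide kinase, gave 56, 2 and 1 and then 14, 3 and 2. Its neighbour RSAD2 (viperin) gave 14, 0 and 0 counts in siNeg and 3, 0 and 0 in siCIN85, where no ratio is given. In siNeg replicate 1 was 9.25-fold the same floor, and the interval started at 6.58. IFIT1, which binds viral RNA lacking the cap methylation of host mRNA, gave 454, 49 and 22 and then 73, 16 and 17, ratios of 12.8 and 3.89. The ratios of the IFIT genes at chr10:89283694-89421001 were 6.5 and 3.19 for IFIT2, 6.80 and 3.10 for IFIT3, and 2.36 and 1.08 for IFIT5.

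Among the remaining effectors, SAMD9L gave 74, 12 and 4 counts in siNeg and 13, 2 and 4 in siCIN85, ratios of 9.31 and 3.86. SAMD9 gave 243, 103 and 54 and then 91, 39 and 48, ratios of 3.10 and 1.84. Both were highest in replicate 1 of each group, SAMD9L by the larger factor. IFI44 had ratios of 18.3 and 4.03, and IFI35 of 2.75 and 2.95. The exonuclease gene ISG20, below a mean of 10 counts, gave 23, 2 and 1 and then 14, 4 and 4.

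SLFN5 was the effector with the smallest siNeg ratio, 1.47, against 1.79 in siCIN85, from 79, 60 and 47 counts and 127, 48 and 78. The 5 guanylate-binding protein and antigen processing genes had a median ratio of 1.78 in siNeg and 1.37 in siCIN85. GBP1, a GTPase induced by interferon gamma, gave 414, 204 and 146 counts and then 144, 80 and 112, and the proteasome subunit PSMB9 gave 179, 105 and 84 and then 104, 52 and 55. The siNeg ratios were 2.35 for GBP1, 1.88 for PSMB9, 1.78 for PSMB8, 1.68 for the peptide transporter TAP1 and 1.53 for GBP2. TRIM38, a ubiquitin ligase that restrains sensor signalling, had ratios of 1.19 and 1.16, with intervals that include 1 in both groups.

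The order of roles by median ratio was similar in both siRNA groups, with the effectors highest and the transcription factors, the antigen processing group and TRIM38 lowest. Sensors and effectors overlapped widely. In siNeg the sensors ran from 2.24 (EIF2AK2) to 40.03 (OAS1), and the effectors from 1.47 (SLFN5) to 102 (BST2). The ratio was larger in siNeg than in siCIN85 for 34 of the 39 members and smaller for 4, MX2, IFI35, SLFN5 and IRF1, and IFI44L has no siCIN85 ratio. Over the 38 members with both ratios, the log2 ratios of the 2 groups had Pearson's r of 0.913 and Spearman's rho of 0.937, given as a description, since members share libraries and several share regulators. Members with an ISRE core in the promoter window had a median siNeg ratio of 6.80 (19 members, 1.68 to 102), and those with a window and no core 3.06 (13 members, 1.07 to 40.03). In siCIN85 the medians were 3.09 and 2.84. These sets hold members that entered through replicate 1.

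**Figure D3:**
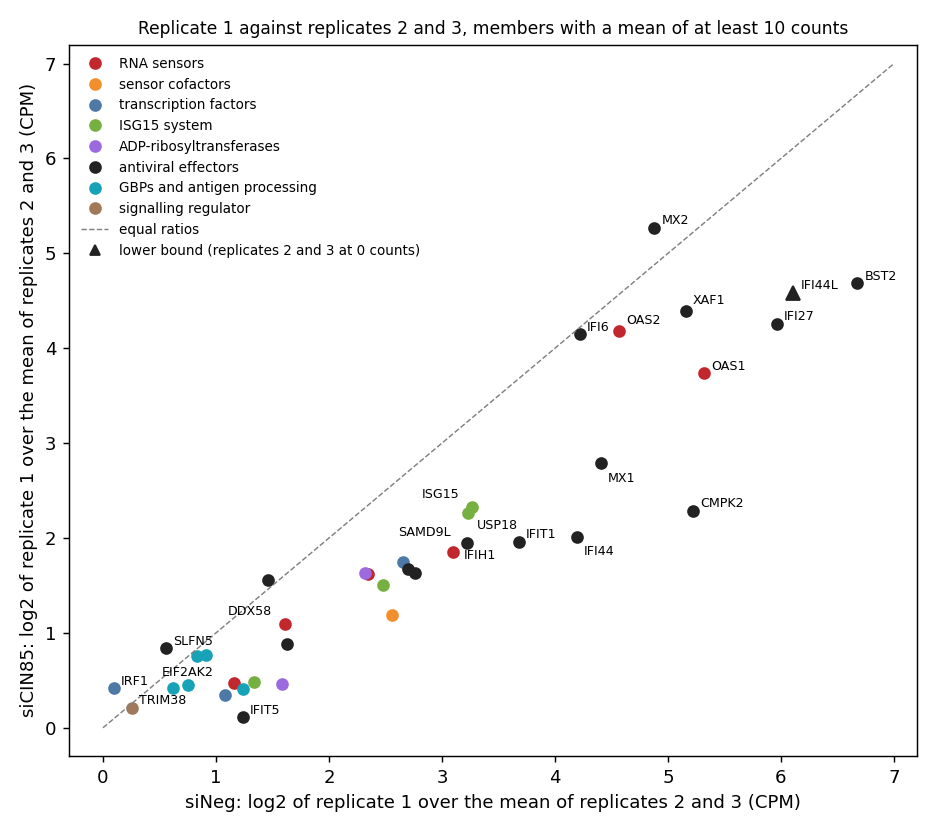
Each point is 1 of the 39 members with a mean of at least 10 counts, placed by the log2 ratio of replicate 1 to the mean of replicates 2 and 3 in siNeg (horizontal) and siCIN85 (vertical) and coloured by role. Most points lie below the dashed line of equal ratios. IFI44L is drawn as a triangle, at the siCIN85 value set by the floor of 3 counts.

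The siRNA libraries were also set against Mock. Relative to the range of the 3 Mock libraries, siNeg replicate 1 was above it for 39 of the 39 members and siCIN85 replicate 1 for 37, against 30% and 35.6% of genes. Replicate 2 of siNeg was above the Mock range for 26 members and below it for 4, where 30.8% of genes were above and 30.9% below. For siNeg replicate 3 the numbers were 12 above and 14 below, where 28.7% and 30.7% of genes were. For siCIN85 replicate 2 they were 8 and 12 (30.4% and 30.7% of genes), and for siCIN85 replicate 3 they were 10 and 11 (33.7% and 33.7%). Replicate 2 exceeded replicate 3 for 33 of 39 members in siNeg, where 50.2% of genes did, and for 14 of 39 in siCIN85, where 51.0% did. IFI6 showed the siNeg order at 97 and 32 counts, OAS3 at 218 and 147, and IFIT3 at 161 and 75.

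The comparison of siCIN85 with siNeg asks what changes when CIN85 is depleted. Of the 33 members that passed the filter on low counts, none passed an adjusted p of 0.05 in edgeR without a block, where 1.04% of 12542 genes did. An unadjusted p below 0.05 was reached by 9 members, and the median log2 fold change was -0.90, with 31 members negative and 2 positive, against -0.01 over all genes. The 12 members that did not pass the filter included OAS1, BST2, IFI27, IFI44L and CMPK2, which were above 10 counts only in the 2 replicate 1 libraries. Libraries that carried the same number in siNeg and siCIN85 departed from their group means in the same way across genes, so the comparison was also made with the replicate number of the knockdown experiment as a block. Then 14 of the 33 members passed, all lower in siCIN85, where 3.42% of genes passed in all and 1.89% were lower.

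Among the 14 were 3 sensors, IFIH1, OAS2 and OAS3. IFIH1 fell by 1.36 on the log2 scale (SE 0.32, adjusted p = 0.0265 in edgeR with the block), OAS2 by 1.37 (SE 0.36, 0.0415) and OAS3 by 0.81 (SE 0.16, 0.0100). DDX58 and EIF2AK2 did not pass, at -0.44 (SE 0.20, adjusted p = 0.231) and -0.26 (SE 0.14, 0.323). The effectors that passed numbered 5. IFIT1 fell by 1.93 (SE 0.32, adjusted p = 0.00337), SAMD9L by 2.09 (SE 0.41, 0.00951), MX2 by 1.99 (SE 0.41, 0.0128), XAF1 by 1.60 (SE 0.34, 0.0159) and SAMD9 by 1.01 (SE 0.25, 0.0334). OAS2 and MX2 did not pass the filter on low counts without pair 1, so they were tested only through the replicate 1 libraries. Their values cannot be read apart from that pair. SAMD9 and SAMD9L are neighbouring genes whose proteins restrict poxviruses and cell growth.

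PARP9 fell by 1.23 (SE 0.23, adjusted p = 0.00808 in edgeR with the block), PARP14 by 0.76 (SE 0.18, 0.0296) and HERC6 by 1.10 (SE 0.29, 0.0468). GBP1 fell by 1.05 (SE 0.19, adjusted p = 0.00636), GBP2 by 1.30 (SE 0.30, 0.0240) and PSMB9 by 0.74 (SE 0.18, 0.0296). None of the transcription factors passed, and IFI6, with the most counts in replicate 1, was at -0.31 (SE 0.21, adjusted p = 0.445). ISG15 and MX1 were at -0.64 (SE 0.20, adjusted p = 0.0855) and -0.78 (SE 0.28, 0.131). SLFN5 was the highest of the 33, at 0.46 (SE 0.20, adjusted p = 0.228).

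Leaving out pair 1 ended all of these calls. Without replicate 1 of both groups the blocked fit called none of 31 members in edgeR, with 6 at an unadjusted p below 0.05, and the median log2 fold change moved from -0.76 to -0.21, while 0.0693% of genes passed. Without replicate 2 of both it called 9 of 42, where 1.67% of genes passed, and without replicate 3 of both 10 of 42, where 0.628% did. The 42 were admitted in part by the replicate 1 libraries, so these counts and the 0 of 31 are over unlike sets. Both sets of calls held IFI44L, MX2, SAMD9L and XAF1, which had a mean below 10 counts in replicates 2 and 3. Leaving out siNeg replicate 1 alone, without the block, gave a median of 0.20 in place of -0.90, with no call where 0.13% of genes passed, and leaving out replicate 1 of both without the block gave -0.23 with no call, where 0.0462% passed. Without siNeg replicate 3, edgeR with no block called 5 of 42 members, GBP1, GBP2, IFIT1, SAMD9 and SAMD9L, all lower, where 1.44% of genes passed.

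The pairs also differed when each was read by itself. In pair 1, 37 of 39 members were lower in siCIN85, with a median log2 ratio of siCIN85 to siNeg CPM of -1.24, against -0.01 over all genes. Pair 2 had a median of -0.53, with 29 of 36 members lower, and pair 3 one of 0.06, with 15 of 36 lower and 21 higher. Within pair 1 the members did not move by 1 factor. IFIT1 was at -2.68 and SAMD9L at -2.55, while IFI6 was at -0.38 and IFI27 at -0.29. SLFN5, at 0.64, and IRF1, at 0.19, were the members higher in siCIN85 replicate 1. There were 14 members lower in all 3 pairs, as were 23.4% of genes, and no member was higher in all 3, as 22.5% of genes were.

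**Figure D4:**
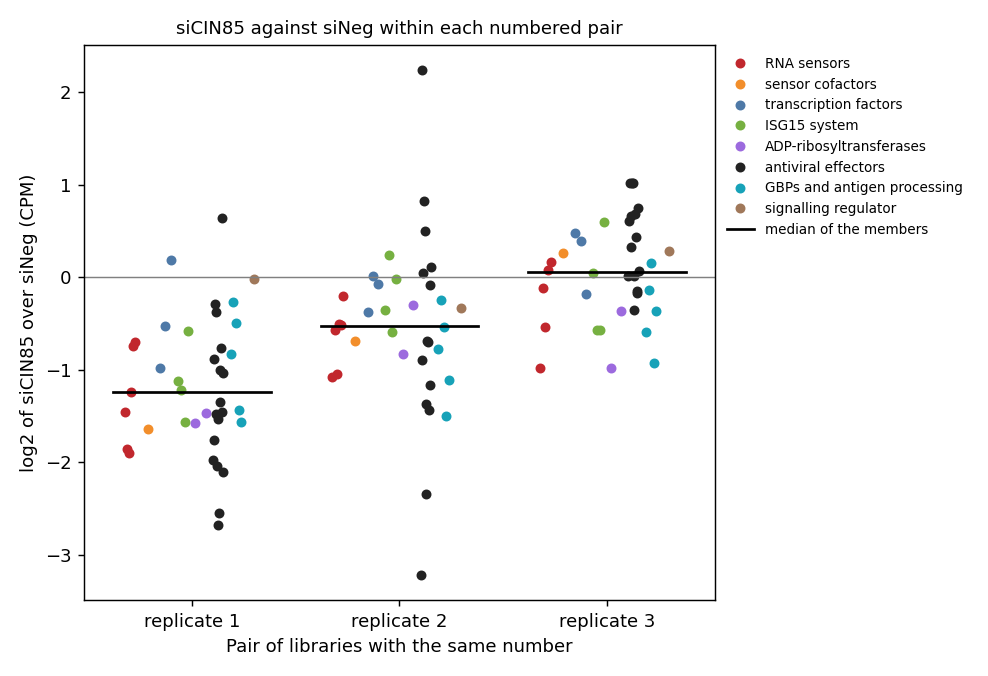
Each point is a member, coloured by role and placed by the log2 ratio of its CPM in siCIN85 to that in siNeg (vertical) within the pair of libraries with the same number (horizontal), and the black lines are medians. The medians are -1.24, -0.53 and 0.06 in pairs 1, 2 and 3.

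Of the 33 members tested, only GBP1 and GBP2 had all 3 siCIN85 libraries below the 3 siNeg libraries. That share was below the 10.2% of all genes, and no member had them all above, where 9.91% of genes did. GBP1 (ENSG00000117228, chr1:89052319-89065360) was at 103, 49.9 and 38 CPM in siNeg and 34.9, 23.1 and 29.6 in siCIN85. GBP2 (ENSG00000162645, chr1:89106132-89150456), a neighbour of the same family, was at 12.5, 9.77 and 6.51 CPM in siNeg and 4.61, 3.47 and 3.43 in siCIN85. For GBP1 the blocked value without pair 1 was -0.73 (SE 0.21, adjusted p = 0.252 in edgeR), and for GBP2 it was -1.22 (SE 0.40, 0.334). DESeq2 with the block on the 6 siRNA libraries called 5 members, GBP1, OAS3, PARP9, SAMD9 and IFI44L, all lower, where 1.31% of genes passed. DESeq2 on 12 libraries with no block called GBP1 and GBP2, where 1.19% did. With the block in both experiments edgeR called 18 members lower, where 7.72% of genes passed, and on the 6 siRNA libraries alone 16, where 10.6% did. With no filter on low counts and no block it called 23 of 45 lower, where 2.45% passed.

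**Figure D5:**
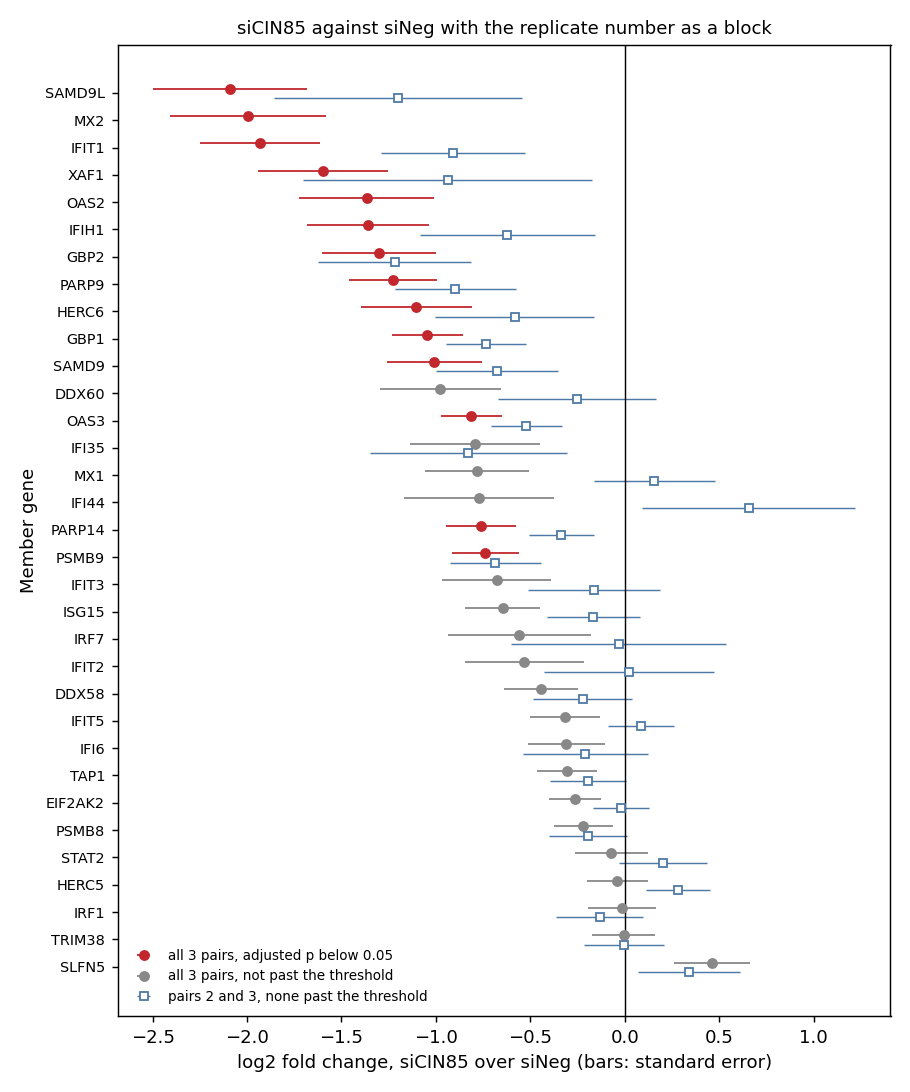
Filled circles are the log2 fold changes of siCIN85 over siNeg (horizontal) for the 33 members tested with the replicate block, red where the adjusted p was below 0.05, and open squares are the values from pairs 2 and 3 alone; bars are standard errors. The 14 red circles lie between SAMD9L at -2.09 and PSMB9 at -0.74, most squares lie nearer 0, and MX2 and OAS2 have no square because they did not pass the filter without pair 1.

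The comparison of upCIN85 with Mock sets the pool with the CIN85 plasmid against the pool with the empty vector. The plasmid and other differences between the selected pools cannot be told apart here. None of the 33 members passed in edgeR on all 12 libraries, where 1.23% of genes did, and 2 had an unadjusted p below 0.05. The median log2 fold change was -0.31, with 22 members negative and 11 positive. SLFN5 (ENSG00000166750, chr17:35243036-35273655), of the Schlafen family, was at 12.8, 10.4 and 9.82 CPM in Mock and 3.85, 5.88 and 5.78 in upCIN85, a log2 fold change of -1.08 (SE 0.29, adjusted p = 0.0721). TRIM38 (ENSG00000112343, chr6:25962802-25991226) was at 15, 16.5 and 13.7 CPM in Mock and 23.4, 29.6 and 23.5 in upCIN85, a log2 fold change of 0.76 (SE 0.19, adjusted p = 0.0587). The groups did not overlap for either gene. SLFN5 fell and TRIM38 rose past the threshold when only the 6 libraries of this comparison were fitted in edgeR (adjusted p of 0.0315 and 0.0324, where 2.28% of genes passed) and in DESeq2 on 12 libraries (0.0281 and 0.0251, where 1.24% passed). With no filter edgeR called 4 of 45 members, where 2.53% of genes passed.

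For 10 of the 33 members all 3 upCIN85 libraries lay below all 3 Mock libraries, where 11% of genes did, and for 2, GBP1 and TRIM38, they lay above, where 9.74% did. The 10, by CPM, were the sensors OAS2 and OAS3, DDX60, ISG15, the effectors IFIT1, IFIT2, IFI35, IFI44 and SAMD9L, and SLFN5. For OAS2 the nearest libraries held 1 count each, at 0.170 CPM in Mock and 0.163 in upCIN85, so its order rests on the scaling. IFI35 and IFIT2 were at 1.69 and 4.92 CPM in the lowest Mock library, against 1.63 and 4.90 in the highest upCIN85 library. ISG15 was at 17.5, 15.4 and 18.6 CPM in Mock and 13.3, 10.1 and 9.35 in upCIN85, and OAS3 was at 44.2, 34.5 and 30.7 and then 28.3, 24.7 and 24.3. IFIT1 was at 8.09, 5.77 and 9.82 CPM in Mock and 5.07, 3.59 and 3.23 in upCIN85, and IFIT3 at 45.7, 23.9 and 39.6 and then 36.7, 20.8 and 19.4. In CPM the Mock and upCIN85 libraries overlapped for the other sensors that passed the filter, DDX58, IFIH1 and EIF2AK2. DDX58 gave 64, 69 and 52 counts in Mock and 47, 42 and 57 in upCIN85, and IFIH1 gave 20, 13 and 14 and then 9, 14 and 15. EIF2AK2 gave 450, 455 and 434 and then 548, 487 and 544, which in CPM ranged from 76.1 to 84.7 in Mock and from 79.6 to 95.8 in upCIN85. Among the transcription factors, STAT2 gave 139, 133 and 96 counts in Mock and 112, 161 and 164 in upCIN85, and IRF7 gave 25, 17 and 29 and then 9, 26 and 7. The 12-library fit shares 1 estimate of each gene's spread over all groups, the replicate 1 siRNA libraries included. For ISG15 the log2 fold change of -0.65 had an SE of 0.75 in that fit and of 0.19 in the fit on 6 libraries (adjusted p of 0.750 and 0.0907 in edgeR), and for OAS3 the value of -0.50 had SEs of 0.53 and 0.16 (0.725 and 0.128).

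DHX58 gave 2, 2 and 2 counts in Mock and 5, 1 and 0 in upCIN85. TLR3 gave 3, 8 and 5 counts in Mock and 9, 2 and 10 in upCIN85. OAS1 gave 2, 1 and 1 and then 1, 0 and 1, and OAS2 gave 5, 1 and 4 and then 0, 1 and 0. These 4 sensors were at or below 10 counts in each of the 6 libraries. MX1 gave 72, 55 and 47 counts in Mock and 55, 40 and 52 in upCIN85, and its paralog MX2 gave 8, 3 and 3 and then 7, 4 and 7. IFI6 gave 92, 59 and 72 counts in Mock and 69, 67 and 81 in upCIN85. XAF1 gave 17, 9 and 15 counts in Mock and 14, 13 and 19 in upCIN85. MX1 and IFI6 were read at 40 counts or more in each of these libraries. IFI27 gave 2, 4 and 2 counts in Mock and 1, 2 and 1 in upCIN85, and BST2 gave 3, 1 and 0 and then 0, 0 and 0. CMPK2 gave 2, 1 and 0 counts in Mock and 1, 0 and 1 in upCIN85. SAMD9L gave 14, 15 and 12 counts in Mock and 7, 7 and 8 in upCIN85, and SAMD9 gave 106, 89 and 74 and then 83, 47 and 76. The SAMD9L counts did not overlap between the groups. HERC6 gave 13, 18 and 25 counts in Mock and 12, 17 and 13 in upCIN85. PARP9 gave 38, 54 and 63 counts in Mock and 69, 42 and 57 in upCIN85, and PARP14 gave 191, 201 and 162 and then 208, 198 and 219. DDX60 gave 18, 29 and 21 counts in Mock and 17, 14 and 16 in upCIN85. The groups overlapped for HERC6, PARP9 and PARP14 and not for DDX60. GBP1 gave 169, 211 and 216 counts in Mock and 246, 234 and 318 in upCIN85, and GBP2 gave 19, 23 and 19 and then 22, 23 and 43. PSMB9 gave 82, 85 and 87 counts in Mock and 74, 63 and 102 in upCIN85. IRF1 gave 110, 104 and 108 counts in Mock and 96, 109 and 154 in upCIN85, and IRF9 gave 1, 2 and 5 and then 3, 5 and 1. Of these, GBP1 was higher in each upCIN85 library than in each Mock library. In the siRNA libraries IFIT3 gave 801, 161 and 75 counts in siNeg and 324, 84 and 100 in siCIN85, and TRIM38 gave 111, 88 and 96 and then 113, 59 and 115.

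The 2 control groups of the study, siNeg and Mock, were also compared. None of the 33 members passed in edgeR, where 0.526% of genes did, although 28 had an unadjusted p below 0.05 and all 33 were positive, with a median log2 fold change of 1.20. Without replicate 1 of siNeg and siCIN85 none of 31 passed, where 0.162% of genes did, 3 had an unadjusted p below 0.05 and the median was 0.26. Without siNeg replicate 3, 15 of 42 members passed, all higher in siNeg, where 1.02% of genes passed. Leaving out a library loosened the filter, so 42 members were tested in place of 33. Of the 15, CMPK2, IFI44L, MX2, OAS1 and OAS2 had a mean below 10 counts in siRNA replicates 2 and 3. Their calls cannot be read apart from the replicate 1 libraries. Under other settings GBP2 passed alone in edgeR with a minimum of 10 counts in every library and on the 6 libraries, where 0.609% and 0.761% of genes passed, and with PSMB9 in DESeq2, where 0.728% did. With no filter 35 of 45 passed, where 1.5% of genes did. The siRNA and its delivery, the vector with its selection, and the 2 experiments cannot be told apart here. In 8 members all siNeg libraries lay above all Mock libraries, where 9.48% of genes did, and in none below, where 9.94% did. The 8 were DDX58, IRF1, TRIM38 and all 5 genes of the guanylate-binding protein and antigen processing group. PSMB9 was at 15.4, 14.4 and 15.3 CPM in Mock and 44.7, 25.7 and 21.9 in siNeg, and GBP2 was at 3.57, 3.90 and 3.33 and then 12.5, 9.77 and 6.51. Without replicate 1 the log2 fold change of GBP2 was 1.17 (SE 0.34, adjusted p = 0.200 in edgeR) and that of PSMB9 0.66 (SE 0.21, 0.258), while that of IFI6 went from 3.05 (SE 1.06) to 0.28 (SE 0.33) and that of MX1 from 2.66 (SE 0.91) to -0.28 (SE 0.34).

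Further genes of interferon signalling were read from a list of 70, of which 64 were in the table and 53 passed the filter. Those with a mean of at least 10 counts in the siRNA libraries also numbered 53. Of these, 33 were highest in both replicate 1 libraries, where 15.4% of the 11717 genes were. Among 24 further induced genes 23 were, with median ratios of 1.86 in siNeg and 1.72 in siCIN85. The 5 with ratios of at least 2 in both groups were CXCL11, IFITM3, LGALS3BP, EPSTI1 and DTX3L. CXCL11 gave 42, 4 and 2 counts in siNeg and 17, 3 and 4 in siCIN85, so it entered only through replicate 1. IFITM3, which blocks viral entry, gave 1702, 625 and 401 counts in siNeg and 1354, 394 and 342 in siCIN85. The 6 receptor genes had ratios of 0.95 to 1.28 in siNeg and 0.702 to 1.18 in siCIN85. Of the interferon genes in the table, IFNB1, IFNE and IFNL1 were at 0 in all 3 siNeg libraries, and IFNB1 and IFNL1 at 0 in siCIN85, where IFNE reached 2 counts.

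In tests of these 53 genes, none passed in upCIN85 versus Mock or in siCIN85 versus siNeg without the block in edgeR on 12 libraries, where 1.23% and 1.04% of all genes did. With the knockdown block 1 of 53 passed, a share below the 3.42% of all genes. It was APOL1, which fell by 1.78 on the log2 scale (SE 0.41, adjusted p = 0.0214). Its counts were 23, 15 and 9 in siNeg and 7, 4 and 2 in siCIN85, and without pair 1 its value was -1.82 (SE 0.58, adjusted p = 0.311). In siNeg versus Mock, where 0.526% of all genes passed, 2 of 53 did. The proteasome activator subunits PSME1 and PSME2 rose, by 0.69 (SE 0.14, adjusted p = 0.0301) and 0.62 (SE 0.13, 0.0400), while without replicate 1 their values were 0.56 (adjusted p = 0.115) and 0.57 (0.139). PSME1 gave 403, 439 and 521 counts in Mock and 614, 509 and 434 in siNeg, with the smaller totals of siNeg.

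By position, 24 members lay in 10 clusters with gaps of at most 200000 bases in GENCODE 29 on GRCh38. Members of a cluster differed in the replicate 1 ratio. At chr21:41361943-41459214 MX2 and MX1 had siNeg ratios of 29.4 and 21.2, at chr4:88378739-88506163 HERC6 and HERC5 had 5.57 and 2.53, and at chr7:93099513-93148369 SAMD9 and SAMD9L had 3.10 and 9.31. Another gene of the table was overlapped by 14 members, 4 of them on the same strand (IFIT2, STAT2, IRF9 and PSMB9), so their counts could in part belong to the other gene, depending on how reads were assigned.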

How the data were processed

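Total RNA of HOS cells was read as 3′ ends (QuantSeq 3′ FWD libraries with a UMI module, single-end on a NextSeq 500). Per the labels, the authors' processing notes name FastQC, cutadapt 4.3, STAR 2.7.3a, Picard 2.25.6, MultiQC 1.10.1 and featureCounts of Subread 2.0 on GRCh38. The deposited values are raw counts per gene and library, not normalized. Whether UMIs were collapsed, the annotation release and the strand setting are not given in the sources used here. With 3′ reads, levels were not compared between genes. Identifiers were matched to GENCODE 29 symbols, and 95 of 25141 did not match.

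Genes were filtered with filterByExpr (minimum count 10, minimum total 15), leaving 12542. All 12 libraries were fitted together without a block in edgeR 4.0.16 (R 4.3.3, limma 3.58.1) with TMM factors and the quasi-likelihood test, and p-values were adjusted over all genes tested (Benjamini-Hochberg, calls below 0.05). DESeq2 1.42.0 was an alternative, and adjusted p-values it did not give were left missing. Total counts of 3540641 to 6049458 set the counting error, and the exact binomial intervals (95%) and the floor of 3 counts cover that error only. The scripts were tested on simulated data.

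The replicate numbers come from the labels. Deviations from the group means correlated at 0.353, 0.269 and 0.446 in the numbered siNeg and siCIN85 pairs, so these were treated as paired. The members, roles, pathway list and tests were chosen with earlier results of these data known. All members are given by role. Values in every library are given for the RNA sensors, for members past the threshold in an edgeR fit of all replicates and filtered genes, with or without the block, for the transcription factors and for the 10 members with the largest replicate 1 ratios in both siRNA groups. Python 3.11.15, pandas 2.3.3, SciPy 1.17.1 and matplotlib 3.10.9 were used for the descriptions and figures. Calls in the pathway list under the block in both experiments are not reported here.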

Additional observations from a re-analysis of the deposited data

How the results depend on the processing

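For the 33 members in the edgeR fit without a block, each value called under another setting had the sign it had in that fit. Values that were not called could change sign. In siCIN85 versus siNeg 31 of the 33 were negative in that fit, while without siNeg replicate 1 24 of 34 were positive. For upCIN85 versus Mock, where edgeR called 0 members, the count was 4 with no filter, 2 on only the 6 libraries, 2 in DESeq2 and 0 to 0 with each replicate left out. The Mock and upCIN85 numbers did not pair the samples by the criterion used (correlations of 0.326, 0.227 and 0.0989, the last at the limit of 0.1, and 0.1002 without the listed genes), although every sample correlated best with its own number. With the replicate block the count was 4 in both experiments together (ISG15, OAS3, SLFN5 and TRIM38, 8.25% of genes), 6 on only the 6 libraries (also IFIT1 and IFIT3, 7.77%) and 0 in DESeq2. For siCIN85 versus siNeg, also 0, it was 23 with no filter, 2 in DESeq2 and 0 to 5 with each replicate left out, the 5 without siNeg replicate 3. With the replicate block it was 14 in the knockdown alone, 18 in both experiments, 16 on only the 6 libraries and 5 in DESeq2. The blocked knockdown count was 0 of 31 without pair 1, 9 of 42 without pair 2 and 10 of 42 without pair 3, over unlike sets of members. For siNeg versus Mock, also 0, it was 35 with no filter, 1 with at least 10 counts in every library and 1 on only the 6 libraries. It was 2 in DESeq2 and 0 to 15 with each replicate left out, the 15 of 42 without siNeg replicate 3. Some of the 42 had few counts outside the replicate 1 libraries. No paired analysis was possible because siNeg and Mock belong to different experiments. The cause of these differences was not tested. The blocks on 6 libraries in edgeR and the blocked knockdown without 1 pair were chosen after seeing the data. The count of members highest in both replicate 1 libraries was 38 of 39 with CPM on total counts, with RLE factors and after thinning, 41 of 42 at a mean of at least 5 counts, 32 of 33 at 30 and, chosen after seeing the data, 29 of 30 by Mock and upCIN85 counts. Members at a few counts per library, such as DHX58, IRF9 and RSAD2, were too shallow to compare.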
